A study of Mus musculus with 12 samples.

Results

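Gene expression in wild-type granulocyte-monocyte progenitors (GMP) of mouse bone marrow was read from 4 of the 12 arrays of the series, those labelled Runx1+/+ GMP with replicate numbers 1 to 4. All 4 samples carried intact Runx1 alleles together with the vav-Cre transgene (Runx1+/+-Tg(vav-Cre)), whose promoter is active in blood cells, so Cre recombinase was present although no floxed Runx1 allele was. The Runx1-deleted GMP set beside them came from Runx1fl/fl-Tg(vav-Cre) mice (4 arrays), which share the transgene. The remaining 4 arrays (2 with ERt2 and 2 with RUNX1-ERt2) held GMP of transplanted mice. They served only to estimate the spread, to help choose the genes tested and in alternative settings. Bone marrow of Runx1fl/fl-Tg(vav-Cre) donors, taken on day 3 after 150 mg/kg of 5-fluorouracil, received a GFP retrovirus with one of these constructs. It was given to lethally irradiated recipients, which got 49.5 µg/g tamoxifen on 3 days after 6 weeks, with GFP+ GMP sorted 24 h later. Ages, sexes and the number of animals behind an array are not given in the labels, and the p-values below therefore reflect no more than how these samples spread, part of which can be technical.

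GMP are committed progenitors that give rise to neutrophils and monocytes. They are sorted as cells that lack markers of mature lineages and the stem cell marker Sca-1 and carry the stem cell factor receptor Kit, CD34 and the Fc gamma receptors CD16 and CD32. Their first step towards the neutrophil is the making of the primary (azurophil) granules, filled with myeloperoxidase and serine proteases, under transcription factors such as C/EBP alpha and PU.1. The secondary and tertiary granule proteins are made in later cells.

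A level below is the log2 processed signal of a gene's brightest probe minus the 75th percentile of the array, so a level of 0 is the 75th percentile itself. Every gene was ranked by its mean level over the 4 wild-type arrays. The order is one of probe signals, since each probe binds its target with its own strength, and RNA lengths do not enter. In a bulk sample, fewer cells of a type and less RNA per cell cannot be told apart. The wild-type arrays had 56.7% to 61.8% of 39429 probes well above background, with no saturated spot, and the 75th percentile of the processed signal lay between 941 and 1545. Arrays 1 and 2 lay on slide 1 and arrays 3 and 4 on slide 2, scanned under another protocol name, so slide and scan cannot be told apart, and each slide also held 2 Runx1-deleted arrays. Array numbers follow the scanner files: in the deposited value table the wild-type and the Runx1-deleted columns 1 and 3, and 2 and 4, hold each other's array, which leaves the genotype of every array as labelled but makes the replicate number uncertain.

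Of 30175 genes and unnamed transcripts with a probe, 16505 (54.7%) were well above background on all 4 wild-type arrays, 3313 (10.98%) on 1 to 3 and 10357 (34.3%) on none. Among the 22389 with a gene symbol, 13291 were above background on 4 arrays, 2216 on 1 to 3 and 6882 on none. The dimmest probes called above background on an array lay at levels of −6.17 to −5.49, and a lower value carries no order. The Runx1-deleted arrays called a similar number, 17156, on 4 arrays. Both genotypes had 16165 genes on all their arrays and 8982 on none, while 72 were on all wild-type and no Runx1-deleted arrays and 86 the reverse.

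The 100 brightest genes of wild-type GMP held 31 ribosomal protein genes, beside 8 histone genes and 33 transcripts known only by a clone or transcript identifier. Rpl37a, a protein of the large ribosomal subunit, ranked 2 at 7.91, 8.01, 8.17 and 8.62 on arrays 1 to 4, followed by Rplp2, Rplp0 and Rps14. Both slide 2 arrays were higher than both slide 1 arrays for Rpl37a. Of all 40 ribosomal protein genes on the list, 40 were above background on 4 arrays, against 54.7% of all genes. The median percentile of the list was 99.6. Cytoplasmic actin (Actb, rank 9), tubulin (Tuba1b, rank 25), the proline isomerase Ppia (rank 26), the mitochondrial oxidase subunit COX1 (rank 27) and Tpt1 (rank 30) were the bright housekeeping genes. Myeloperoxidase, Mpo, was the brightest gene with a myeloid function, at rank 18, and the granule protease cathepsin G, Ctsg, was at rank 83. No other gene of the primary granule list was among the 100.

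A further 10 of the 100 brightest were genes whose brightest probe held a piece of a mouse B1 or B2 element, short interspersed repeats that occur in very many copies of the genome. Their probes are shown because the rank of these genes is the rank of the repeat-bearing probe. In the stretches below, each 30 bases of a 60-base probe (coordinates mm9, as the files give them), capitals mark the searched B1 or B2 motif.
Slc10a1 (probe at chr12:82056539-82056598): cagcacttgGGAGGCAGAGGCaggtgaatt
Elk1 (probe at chrX:20510521-20510580): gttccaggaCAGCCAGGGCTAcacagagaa
Kctd14 (probe at chr7:104606896-104606955): gttccaggaCAGCCAGGGCTAtacaaaaaa
Ndor1 (probe at chr2:25100377-25100436): ccaggaggaCAGCCAGGGCTAcacagagac
Medag (probe at chr5:150234212-150234271): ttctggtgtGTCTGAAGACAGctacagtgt
Pirb (probe at chr7:3663046-3663105): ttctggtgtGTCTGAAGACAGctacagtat
Exosc2 (probe at chr2:31536706-31536765): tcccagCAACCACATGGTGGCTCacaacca
Slc10a1, a bile acid transporter of liver, ranked 8 with 7.78, 7.59, 8.27 and 8.56, whereas its other probe was above background on 0 arrays. The kinase-regulated factor Elk1 ranked 22 at a mean of 7.93, and its other probe averaged −5.05. Kctd14 ranked 21 at 7.94, with its 2 other probes at −0.15 and −4.38. Pirb, an inhibitory receptor of myeloid cells, ranked 89 at 7.57, with other probes at −0.08 and −6.71. For Ndor1 the other probe averaged −0.64 against 7.55, and for Medag the other probe was also bright, at 5.08 against 7.68. Exosc2 had 1 probe. Over all genes, 15 had a brightest probe with a B1 motif in the orientation listed, of which 15 were above background on 4 arrays with a median percentile of 99.6. The reverse complement was found in 10, of which 9 were above background on 4 arrays, with a median percentile of 74.95. B2 motifs stood in 22 genes as listed (21 above background on 4 arrays, median percentile 99.3) and in 2 as the reverse complement. The search used 5 short B1 and 3 short B2 sequences on both strands, some of the B1 sequences being variants of 1 segment. The counts hold for these sequences only. The capitals above mark 1 of them in each probe, which may hold a further, overlapping one. Csf3r, the G-CSF receptor that drives neutrophil production, had a B1 motif in its only probe, so its level of 5.83, 5.56, 6.05 and 6.58 is given here, and it counts among the receptors below. The brightest probe of Siglech, a receptor of plasmacytoid dendritic cells, held a B1 motif and a run of 22 A and G bases and averaged 5.99, against −2.52 and −5.74 for its other probes.

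Mpo, Elane, Ctsg, Prtn3 and Cebpa were taken as GMP markers. All 5 were well above background on all 4 arrays, beside 54.7% of all genes and 59.4% of those with a symbol. Detection alone does not set GMP apart, since 23 of 24 erythroid and 22 of 24 stem and early progenitor genes were also detected. Mpo, the enzyme that makes hypochlorous acid in primary granules, stood at 7.70, 7.83, 8.19 and 8.15 (mean 7.97 ± 0.24, SD, n = 4; probe at chr11:87617840-87617899, mm9), above 99.9% of genes. Its other probe, on 4 arrays, averaged 7.12. Ctsg stood at 7.47, 7.38, 7.93 and 7.61 (7.60 ± 0.24, SD, n = 4; chr14:56718795-56718854). For both genes the 4 arrays lay close together, with slide 2 above slide 1 on average. Neutrophil elastase, Elane, measured 5.76, 5.80, 6.76 and 5.55 (5.97 ± 0.54, SD, n = 4; chr10:79350902-79350961), highest on array 3. Proteinase 3, Prtn3, its neighbour on chromosome 10, measured 4.83, 4.94, 5.47 and 4.38 (4.91 ± 0.45, SD, n = 4; chr10:79343869-79344685), again highest on array 3 and lowest on array 4. Cebpa, which encodes C/EBP alpha, measured 1.44, 1.76, 1.76 and 1.21 (1.54 ± 0.27, SD, n = 4; chr7:35906517-35906576), at the 82.3rd percentile.

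**Figure D1:**
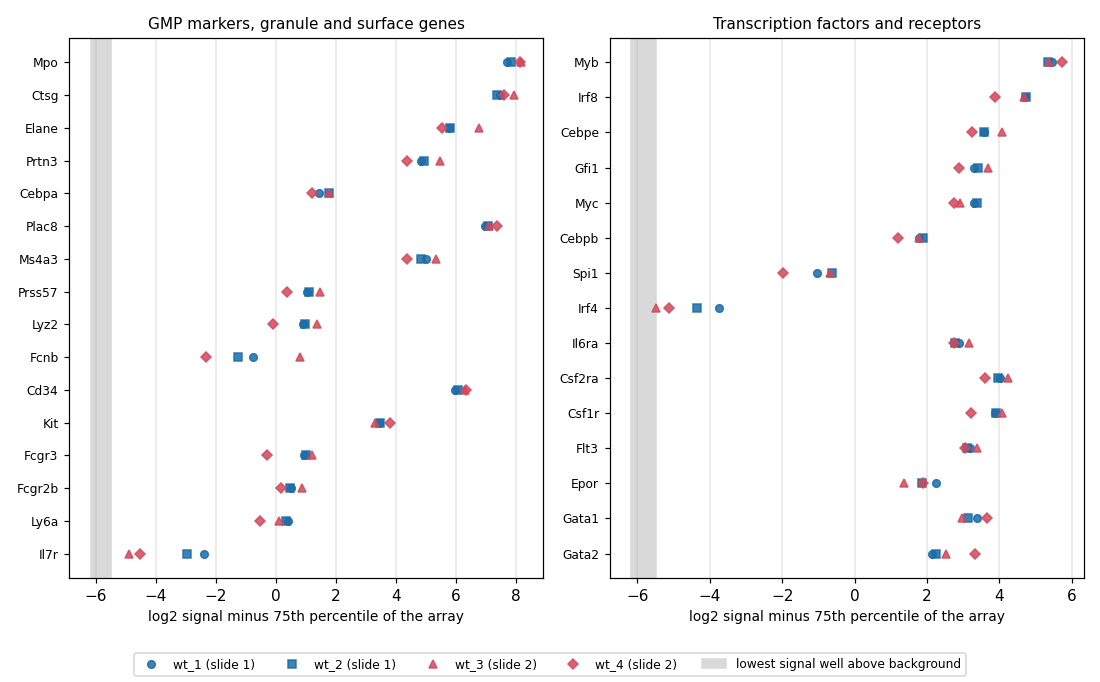
Level of GMP marker, granule and surface genes (left) and of transcription factors and receptors (right) on each of the 4 wild-type arrays, as log2 signal minus the 75th percentile of the array; colours give the slide, symbols the array, and the grey band the lowest signals called well above background (−6.17 to −5.49). Mpo and Ctsg sit above 7 on every array, whereas Spi1 lies below 0 and Irf4 nears the grey band.

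The sequence before the start sites of 3 of these genes is shown because they share a stretch of letters. The 250 bases before each RefSeq start site (GRCm38.p6) are given in the direction of transcription, and capitals mark GAGGAAGT, the letters of a PU.1 (ETS family) type site, searched on both strands.
Mpo (chr11:87793534-87793783, plus strand): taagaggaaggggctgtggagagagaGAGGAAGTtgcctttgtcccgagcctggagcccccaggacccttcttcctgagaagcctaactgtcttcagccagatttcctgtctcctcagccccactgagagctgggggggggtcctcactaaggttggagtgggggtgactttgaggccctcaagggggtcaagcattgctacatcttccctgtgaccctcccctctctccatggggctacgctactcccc
Elane (chr10:79886062-79886311, plus strand): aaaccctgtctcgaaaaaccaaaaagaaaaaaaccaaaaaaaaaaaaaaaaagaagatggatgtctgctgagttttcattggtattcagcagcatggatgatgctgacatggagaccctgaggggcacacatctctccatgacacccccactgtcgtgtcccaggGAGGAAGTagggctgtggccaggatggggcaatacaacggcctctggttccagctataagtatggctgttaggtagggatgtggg
Prtn3 (chr10:79879417-79879666, plus strand): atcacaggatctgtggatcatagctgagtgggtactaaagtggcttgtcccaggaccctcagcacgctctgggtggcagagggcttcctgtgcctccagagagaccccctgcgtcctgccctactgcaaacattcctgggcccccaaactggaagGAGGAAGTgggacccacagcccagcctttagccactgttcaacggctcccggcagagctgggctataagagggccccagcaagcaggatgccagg
The stretch lay 217 to 224 bases before the Mpo start, 78 to 85 before that of Elane and 88 to 95 before that of Prtn3. It was found in 802 of 32851 promoters of this length (2.44%). Of the 23 primary granule genes above background on 4 arrays, 19 had a promoter in the table and 5 of these held it (26.3%): Ctsc, Elane, Mpo, Prom1 and Prtn3. No match was found for Ctsg in this window. A match is a description of letters and shows no binding.

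Primary granule and promyelocyte genes were measured broadly. Of 25 list members, 23 were above background on 4 arrays (92.0%, against 54.7% of all genes), 1 on fewer, and Bpi, the bactericidal permeability-increasing protein, on none. The median percentile of the list was 94.0. Plac8, a small cysteine-rich protein of myeloid cells, was the brightest after Mpo and Ctsg at 6.97, 7.08, 7.11 and 7.36. The other Plac8 probe averaged 3.40. The granule proteoglycan serglycin (Srgn) averaged 5.81 ± 0.33, the membrane protein Ms4a3 4.88 ± 0.40, Nkg7 4.50 ± 0.39 and haptoglobin (Hp) 4.26 ± 0.46 (SD, n = 4). Lower levels were read for the azurophil protease Prss57 at 1.04, 1.11, 1.47 and 0.37, and for lysozyme 2 (Lyz2) at 0.92, 0.96, 1.37 and −0.08. In both, array 4 was lowest and array 3 highest. Ficolin B (Fcnb), a lectin of granulocytes, spread most, at −0.76, −1.26, 0.82 and −2.33. Array 4 was the lowest array for 17 of the 23, and for 34.5% of all genes above background.

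The surface markers by which GMP are sorted were all measured. Cd34 stood at 5.97, 6.06, 6.32 and 6.33 and Kit at 3.44, 3.47, 3.32 and 3.79. The other Cd34 probe averaged 0.11, above background on 4 arrays. Fcgr3 (CD16) stood at 0.93, 1.00, 1.22 and −0.30 and Fcgr2b (CD32) at 0.49, 0.47, 0.86 and 0.17. The arrays differed little in Cd34 and Kit, and array 4 was the lowest for both Fc receptors. Ly6a, which encodes Sca-1, was above background on 4 arrays at 0.42, 0.33, 0.11 and −0.54. Il7r, the interleukin-7 receptor of lymphoid progenitors, was dim at −2.38, −2.95, −4.90 and −4.54, with both slide 1 arrays higher. Of lineage markers, Cd8a was above background on 0 arrays, while the T cell co-receptor Cd4 averaged 0.59 ± 0.27, the integrin Itgam (CD11b) 3.36 ± 0.27, Cd3e −1.07 ± 0.22 and Ly6g −3.33 ± 0.68 (SD, n = 4). The levels of Cd4 and Itgam rest on their brightest probe. The other Cd4 probe averaged −5.69, above background on 2 arrays, and the other Itgam probes averaged −2.72 and −4.37. Itga2b (CD41), a platelet integrin used to set megakaryocyte progenitors apart, stood above 0 on all arrays at 0.92, 0.89, 1.27 and 1.88, and Slamf1 (CD150) stayed low at −4.36, −4.80, −3.82 and −2.78. Both were highest on array 4. Of 19 surface genes with a probe, 18 were above background on 4 arrays, against 54.7% of all genes.

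All 30 myeloid transcription factors on the list were above background on 4 arrays, against 54.7% of all genes. The factors had a median percentile of 82.7. Myb, a driver of progenitor growth, was the brightest of them after Jun, at 5.44, 5.34, 5.38 and 5.73. Irf8, which directs monocyte and dendritic cell fate, stood at 4.70, 4.73, 4.68 and 3.88, with array 4 apart from the others. The RUNX partner Cbfb averaged 4.43 ± 0.07 (SD, n = 4). Cebpe, needed for secondary granules, averaged 3.62 ± 0.34, the neutrophil repressor Gfi1 3.31 ± 0.33, Myc 3.08 ± 0.30, Cebpd 2.91 ± 0.38 and Cebpb 1.66 ± 0.32 (SD, n = 4). Spi1, the gene of PU.1, read low with its 1 probe, at −1.04, −0.62, −0.68 and −1.97. Irf4 was near the floor at −3.75, −4.36, −5.48 and −5.11. Runx1 stood at 1.18, 1.32, 2.23 and 2.13, Runx3 averaged 0.17 ± 0.12 and Runx2 −2.71 ± 0.16 (SD, n = 4). Among factors of other lineages, the erythroid factors Gata1 (3.29 ± 0.30), Zfpm1 (3.47 ± 0.16) and Lmo2 (4.59 ± 0.10) were above background on 4 arrays, as was Gata2 (2.55 ± 0.54; SD, n = 4). The B cell factor Pax5 was above background on 1 array. The stem cell factor Meis1 averaged 2.99 ± 0.23 (SD, n = 4), and Mecom was above background on 2 arrays.

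Of 31 cytokine and growth factor receptors, 30 were above background on 4 arrays, against 54.7% of all genes, and the chemokine receptor Ccr1 on none. The GM-CSF receptor chain Csf2ra stood at 4.02, 3.97, 4.23 and 3.61, and the M-CSF receptor Csf1r at 3.87, 3.90, 4.06 and 3.21. Both were lowest on array 4, the array that was also lowest in Irf8. Flt3, a receptor of early progenitors, averaged 3.19 ± 0.14, the interleukin-3 receptor Il3ra 3.00 ± 0.40, the interleukin-6 receptor Il6ra 2.89 ± 0.18 and the shared beta chain Csf2rb 2.67 ± 0.21 (SD, n = 4). Other probes of these receptors read lower. They averaged −0.04 and −0.41 for Csf1r, −0.73 and −3.81 for Flt3 and −0.80 for Csf2rb, each above background on 4 arrays. The erythropoietin receptor Epor averaged 1.84 ± 0.37, Ccr2 of monocytes 0.44 ± 0.55 and the neutrophil chemokine receptor Cxcr2 −1.75 ± 0.34 (SD, n = 4).

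Genes of growth and biosynthesis were above background throughout, beside 54.7% of all genes and 59.4% of those with a symbol. All 34 cell cycle genes (median percentile 90.1), all 25 ribosome biogenesis genes (87.5), all 27 genes of the endoplasmic reticulum and secretory pathway (89.9) and all 16 glycolysis genes (96.3) were called on 4 arrays. The replication helicase subunits Mcm6 and Mcm3 averaged 6.37 ± 0.08 and 5.34 ± 0.17, nucleophosmin (Npm1) 6.81 ± 0.04 and the disulfide isomerase Pdia6 6.17 ± 0.11 (SD, n = 4). Other probes averaged 4.69 for Mcm3, 3.80 to 6.36 for Npm1 and −0.46 for Pdia6. The glycolytic enzyme Gapdh averaged 7.28 ± 0.26. All 28 interferon response genes (median percentile 71.3) and 13 of 13 class I antigen presentation genes (95.03) were on 4 arrays, with B2m at 6.09 ± 0.14 and H2-K1 at 6.43 ± 0.11. The NADPH oxidase, which makes superoxide in phagocytes, had all 6 genes on the list above background on 4 arrays. Among them, Cyba averaged 4.19 ± 0.16, Rac2 3.96 ± 0.27, Ncf4 3.78 ± 0.33, Ncf1 1.42 ± 0.39 and the catalytic subunit Cybb −3.39 ± 0.91 (SD, n = 4). Cybb spread most of these, at −2.92, −3.52, −2.52 and −4.61.

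**Figure D2:**
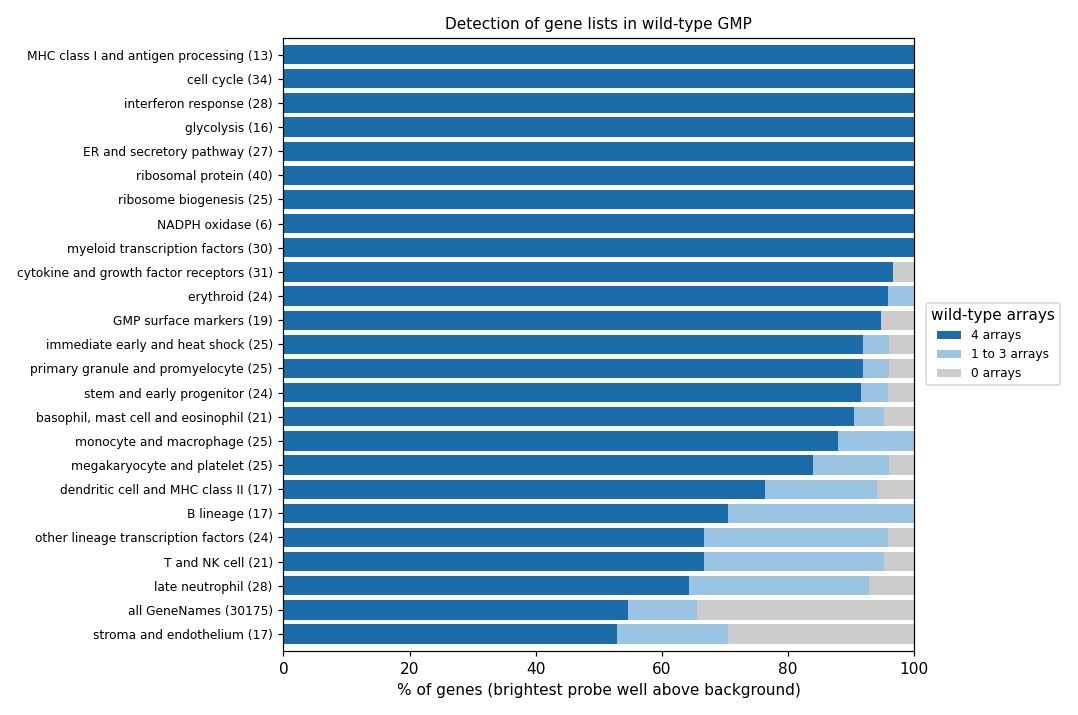
Share of the genes of each list whose brightest probe was well above background on 4, on 1 to 3 or on 0 of the wild-type arrays, with the number of genes with a probe in brackets. Ribosomal, growth, NADPH oxidase and myeloid factor lists reach 100%, late neutrophil genes 64.3% and stroma and endothelium genes 52.9%, beside 54.7% of all genes.

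Markers of other blood lineages were also above background, beside 54.7% of all genes and 59.4% of those with a symbol. Of 24 erythroid genes 23 were on 4 arrays, of 25 megakaryocyte and platelet genes 21, of 25 monocyte and macrophage genes 22, of 21 basophil, mast cell and eosinophil genes 19, of 24 stem and early progenitor genes 22, of 17 B lineage genes 12 and of 21 T and NK cell genes 14. Their summed signal over the wild-type arrays, in multiples of the 75th percentile, was 139 to 213 for the stem and early progenitor list, 117 to 171 for the erythroid list, 72.8 to 146 for monocytes and macrophages, 54.7 to 92.0 for basophils, mast cells and eosinophils, 39.5 to 52.3 for megakaryocytes, 12.5 to 16.01 for the B lineage and 4.49 to 7.75 for T and NK cells. Each sum adds up different probes, so the lists are not ranked by it. In the erythroid list, the haemoglobin gene Hba-a2 stood at 4.85, 4.21, 4.37 and 3.97 and the water channel Aqp1 averaged 4.28 ± 0.18. Car1, a red cell carbonic anhydrase, averaged 3.53 ± 0.51 and Klf1, the erythroid master factor, 0.08 ± 0.36 (SD, n = 4).

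In the basophil and mast cell part of that list, Cpa3 stood at 3.19, 3.33, 3.70 and 3.32, the basophil proteases Mcpt8 at 2.46, 2.08, 2.24 and 2.11 and Prss34 at 2.77, 2.27, 1.95 and 1.60, and the IgE receptor gene Fcer1a at −0.42, −0.75, −0.51 and 0.05. These 4 genes were above background on every wild-type array, and the mast cell tryptase Tpsab1 on none. Of the megakaryocyte list, the platelet chemokine Pf4 averaged 2.22 ± 0.33 and the thrombin receptor F2rl2 was on 0 arrays. Ppbp, another platelet chemokine, was above background on both slide 1 arrays and on neither slide 2 array, at −0.09, −1.15, −6.07 and −5.87. Among lymphoid genes, the terminal transferase Dntt averaged 2.83 ± 0.31, Cd79b 2.15 ± 0.10, Cd79a −3.56 ± 0.41 and the B cell antigen CD20 gene Ms4a1 −4.72 ± 0.79 (SD, n = 4). Rag1 was on 1 array and the light chain gene Igkc on none. Of 3 immunoglobulin genes with a probe, the other 2 were on 4 arrays. Their mean level was 1.82, 1.79, −0.28 and 1.52 on arrays 1 to 4. Of 17 stroma and endothelium genes, 9 were on 4 arrays (52.9%, against 54.7% of all genes) and Adipoq, Cdh5, Col3a1, Lum and Pdgfra on 0. The presence of such cells in the sorts was not tested.

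The X-linked transcript Xist stood at −0.28, −0.69, −2.56 and −0.09, and the Y-linked genes Eif2s3y (1.41 ± 0.23), Ddx3y (−0.41 ± 0.20) and Uty (−4.46 ± 0.22; SD, n = 4) were above background on the same 4 arrays. Female-specific and male-specific transcripts were thus read together in every sample. Of 6 sex-linked genes on the list, these 4 were on 4 arrays, 1 was on fewer and Usp9y on none, beside 54.7% of all genes on 4 arrays. The other Uty probe averaged −5.09, above background on 3 arrays. The labels do not say whether an array held RNA of several animals.

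The 4 wild-type arrays resembled each other, most of all within slide 1. Across the 16505 genes above background on all 4, the Pearson correlation was 0.996 between arrays 1 and 2 and 0.986 between arrays 3 and 4, and 0.975 to 0.988 across slides. These are correlations across genes, which share the array's labelling and scan and are no replicates. Arrays 1 and 2 differed by at least 2-fold in 1.20% of genes, arrays 3 and 4 in 6.25%, and arrays 2 and 4 in 9.98%. The median SD over the 4 arrays was 0.21 log2 units, and 381 genes (2.31%) had an SD above 1. In Runx1-deleted GMP the median SD was 0.22, and 477 genes exceeded 1. Several groups of variable genes had a common order of the arrays, described in turn. They were picked for these values, so the groups are described and not tested.

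Many of the genes that varied most held long runs of A and G in their probes. Of the 100 genes with the highest SD, 42 had a run of at least 16 A and G bases in the 60-base probe, and of the 50 highest 22, against 225 of 16505 (1.36%). Stretches of 5 such probes are shown (mm9), with the run in capitals.
Tbx22 (probe at chrX:104881102-104881161): AAAAGGAAAGAGAAAGAGAGAGAGAGAGAG
Ddx25 (probe at chr9:35349535-35349594): tattGAAGAGAGAGAGAGAAGAGAGGcctt
Rhox8 (probe at chrX:35231462-35231521): AGAAGAAGAAGAAGAAGAAGAAGAAGAAGA
Shc4 (probe at chr2:125453931-125453990): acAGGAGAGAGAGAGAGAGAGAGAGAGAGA
Syn3 (probe at chr10:85586568-85586627): cAAAGAGAGAGAAAAGGAGAGAGAGAGAca
The T-box factor Tbx22 measured −3.24, −3.99, 0.80 and 2.75, and the germ cell helicase Ddx25 −2.43, −2.83, 1.26 and 3.08. The synaptic gene Syn3 measured −4.74, −4.75, −1.10 and 1.39. In each, both slide 2 arrays were above both slide 1 arrays, by more than 3 units. Rhox8, a homeobox gene of the reproductive tract, measured 4.58, 4.57, 6.92 and 7.23 with this probe, and its other probe averaged −2.71 with a slide difference of −0.48. Both slide 2 arrays were above both slide 1 arrays for 170 of the 225 genes with such a run (75.6%), against 27.9% of all genes, and for 147 to 161 of them under 4 other scalings. In Runx1-deleted GMP the count was 117 (52.0%, against 32.1%). The median difference between slides grew with the length of the run: it was −0.02 for runs of up to 5 bases, 0.29 for 16 to 20, 1.61 for 21 to 30 and 2.00 for 31 to 60. In Runx1-deleted GMP the last 3 were 0.33, 0.82 and 0.99. Runs of 21 to 30 C and T bases went the other way, with medians of −0.72 in wild-type and −0.45 in Runx1-deleted GMP. Scn3b (SD 3.35) and Mrgprg (SD 3.34), the most variable of the named genes, moved in the same way with runs of 11 and 14 bases. Among the 20 most variable named genes, the exceptions were Gzma and another transcript listed under the NK receptor gene Klra1, at −0.37, −1.13, −5.03 and −1.47.

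**Figure D3:**
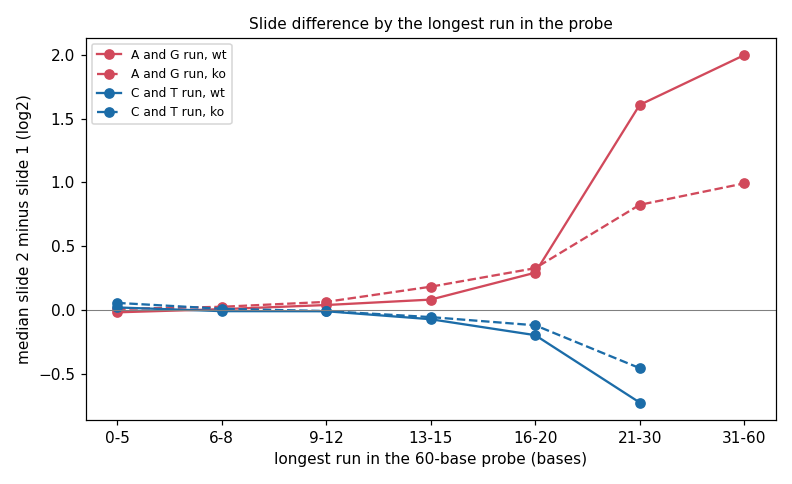
Median difference between slide 2 and slide 1 (log2) for genes above background on all 4 wild-type arrays, by the longest run of A and G (red) or of C and T (blue) in the 60-base probe, in wild-type (solid) and Runx1-deleted GMP (dashed); classes under 20 genes are not drawn. The A and G curves climb to 2.00 and 0.99 in the longest class, and the C and T curves fall to −0.72 and −0.45.

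Genes of the late neutrophil formed a second group. Of 28 members, 18 were above background on 4 arrays (64.3%), 8 on 1 to 3, and Olfm4 and Arg2 on none. Among all genes 54.7% were on 4 arrays, and among those with a symbol 59.4%, so the detected share of this list was near that of all. Lactoferrin (Ltf), an iron-binding protein of secondary granules, measured 1.49, −0.45, 3.33 and 0.31. The cathelicidin Camp measured 4.17, 2.05, 5.16 and 2.54, and the neutrophilic granule protein Ngp 1.57, −0.36, 2.79 and −0.50. In all 3, arrays 1 and 3 were above arrays 2 and 4. The calcium-binding protein S100a9 measured 6.19, 4.78, 7.21 and 5.21, its partner S100a8 5.15, 4.03, 6.10 and 3.81, and the siderophore-binding lipocalin Lcn2 1.28, −0.17, 2.82 and 0.17. The same arrays were high, and the groups of 2 did not overlap. Of the 18 genes, 16 were higher on array 1 than on array 2 and on array 3 than on array 4, against 15.6% of all genes, and 14 had both high arrays above both low ones, against 6.42%. With normexp background correction the first count was 11 of 18, against 27.0% of all genes, and it was 16 under the other 3 scalings. The mean level of the 26 genes above background anywhere was −0.84, −2.07, 0.52 and −1.57, and their summed signal was 166, 73.9, 327 and 79.9 times the 75th percentile. Padi4 (0.11, 0.45, 0.77 and 0.47) and Ckap4 (0.70, 0.89, 0.64 and 0.20) did not share the pattern. The Runx1-deleted arrays spread as widely, with a summed signal of 36.9, 92.9, 326 and 156, and 15 of the 18 genes were highest on array 3 there, against 26.6%, and 14 lowest on array 1, against 17.0%. The part of mature neutrophils in the sorts was not tested.

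Promoters of 3 of these genes are shown because the letters of a C/EBP type site recur in the list. Capitals mark TTGCNNAA, searched on both strands, in the 250 bases before the RefSeq start (GRCm38.p6).
Ltf (chr9:111019042-111019291, plus strand): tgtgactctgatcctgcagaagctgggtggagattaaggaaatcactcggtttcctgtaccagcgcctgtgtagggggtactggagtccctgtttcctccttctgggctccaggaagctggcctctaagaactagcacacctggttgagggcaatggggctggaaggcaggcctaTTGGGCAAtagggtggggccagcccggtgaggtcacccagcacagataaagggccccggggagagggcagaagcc
Ngp (chr9:110419558-110419807, plus strand): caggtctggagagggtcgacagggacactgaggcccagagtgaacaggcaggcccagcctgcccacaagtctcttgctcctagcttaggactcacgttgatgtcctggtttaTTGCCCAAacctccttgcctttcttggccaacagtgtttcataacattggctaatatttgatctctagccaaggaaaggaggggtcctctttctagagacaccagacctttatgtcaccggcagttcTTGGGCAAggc
Lcn2 (chr2:32387740-32387989, minus strand): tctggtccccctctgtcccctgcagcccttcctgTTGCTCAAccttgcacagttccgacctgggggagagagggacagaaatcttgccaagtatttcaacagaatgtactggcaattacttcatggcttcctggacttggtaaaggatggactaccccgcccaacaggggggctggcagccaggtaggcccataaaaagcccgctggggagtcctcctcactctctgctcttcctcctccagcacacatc
The match lay 68 to 75 bases before the Ltf start, 209 to 216 before that of Lcn2, and at 131 to 138 and 4 to 11 before that of Ngp. Of the 18 genes, all with a promoter in the table, 8 held it (44.4%): Anxa1, Lcn2, Ltf, Ly6g, Mmp8, Ngp, Retnlg and S100a9. It stood in 3142 of all 32851 promoters (9.56%) and in 4 of 19 primary granule promoters. GAGGAAGT was found in 4 of the 18. These are counts of letters, with no test.

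**Figure D4:**
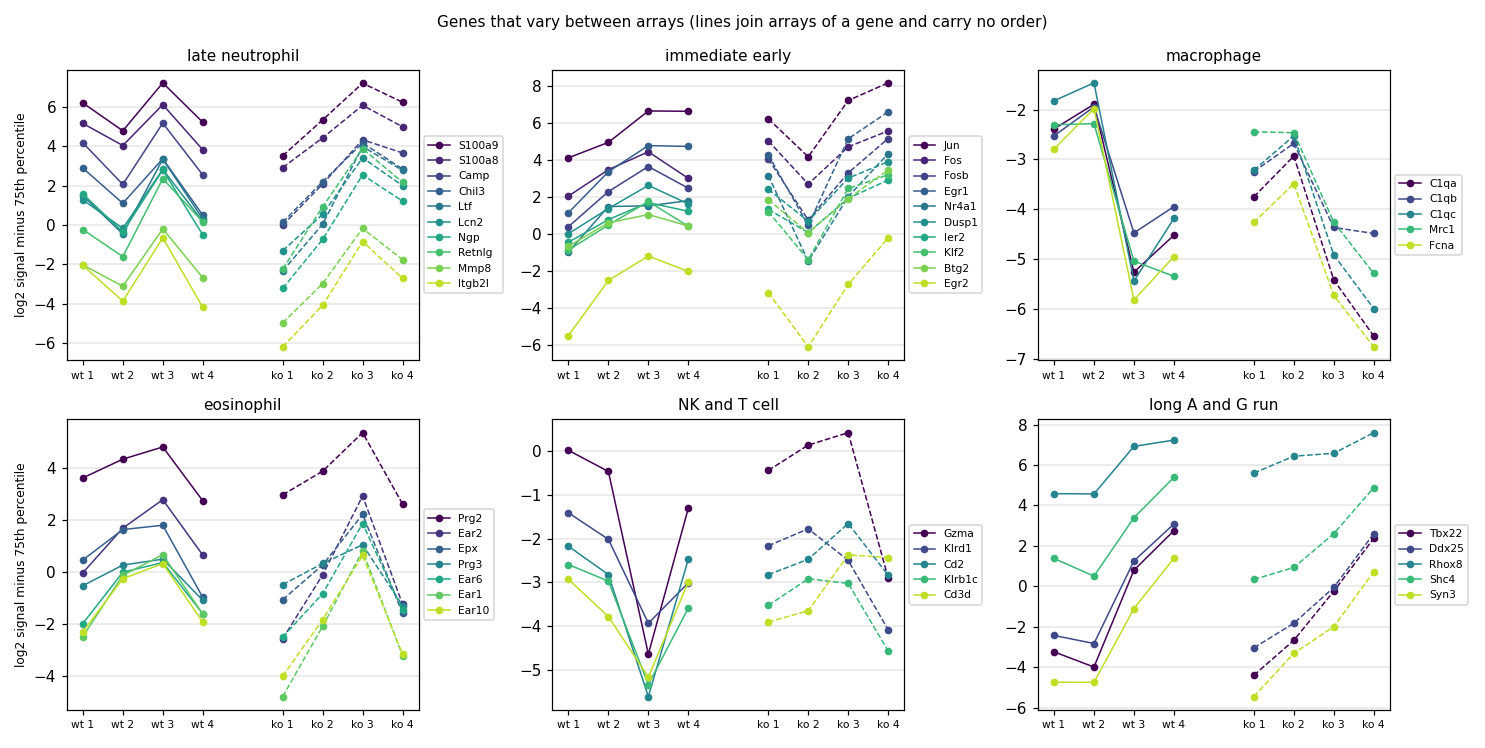
Level (log2 signal minus the 75th percentile) of genes of 6 groups on the 4 wild-type arrays (solid) and the 4 Runx1-deleted arrays (dashed); lines join the arrays of a gene and carry no order. Late neutrophil genes are high on wild-type arrays 1 and 3, immediate early genes low on array 1, macrophage genes high on arrays 1 and 2, eosinophil genes high on arrays 2 and 3, NK and T cell genes low on array 3, and genes with long A and G runs high on arrays 3 and 4.

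Immediate early genes, which are switched on within minutes of a stimulus or of stress, were lowest on array 1. Jun measured 4.11, 4.94, 6.63 and 6.62, Egr1 1.15, 3.36, 4.77 and 4.72, and Fosb 0.39, 2.29, 3.64 and 2.47. The nuclear receptor Nr4a1 measured −0.97, 1.48, 1.52 and 1.80, with array 1 apart from the others. Of 23 genes of this and the heat shock list above background on 4 arrays, 20 were lowest on array 1, against 18.7% of all genes, and 18 to 20 were so under 4 other scalings. The phosphatase Dusp1 (0.02, 1.37, 2.62 and 1.62), Ier2 (−0.44, 0.78, 1.69 and 1.22) and the RNA-binding protein Zfp36 (−1.62, 0.07, 1.08 and −0.42) followed it. The summed signal of the list was 241, 310, 487 and 427. In Runx1-deleted GMP 19 of the 23 were lowest on array 2, against 30.6%, and 19 highest on array 4, against 31.2%. There Jun measured 6.21, 4.16, 7.2 and 8.15. The Egr3 probe was above background on 0 wild-type arrays. The handling of the samples before extraction is not described in the labels, and its part was not tested.

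Genes of tissue macrophages were higher on slide 1. The complement genes C1qa (−2.39, −1.89, −5.26 and −4.52), C1qb (−2.53, −1.95, −4.47 and −3.95) and C1qc (−1.83, −1.47, −5.44 and −4.19), the mannose receptor Mrc1 (−2.31, −2.28, −5.04 and −5.35) and ficolin A (Fcna; −2.80, −1.98, −5.82 and −4.95) had both slide 1 arrays above both slide 2 arrays, at low levels. The monocyte genes Ly6c1 (5.43, 5.25, 5.97 and 4.47) and F13a1 (4.24, 4.12, 3.96 and 3.09) were brighter and differed less between slides. Their other probes averaged 3.42 and −2.45, with slide differences of −0.56 and −0.33. Of 22 monocyte and macrophage genes above background on 4 arrays, 14 were higher on both slide 1 arrays, against 25.6% of all genes, and 12 to 15 under other scalings. In Runx1-deleted GMP the count was 19 of 22, against 29.0%. The order was not particular to this list. In wild-type GMP it was also found in 27 of 34 cell cycle, 18 of 28 interferon response, 14 of 23 erythroid, 7 of 12 B lineage and 8 of 14 T and NK cell genes. It was found in 0 of 40 ribosomal protein genes and 3 of 22 stem and early progenitor genes. Of 13 dendritic cell and class II antigen presentation genes above background on 4 arrays, 9 were higher on both slide 1 arrays, against 25.6% of all genes. In Runx1-deleted GMP it was 8 of the 13, against 29.0%. In wild-type GMP 8 of the 13 were lowest on array 4, against 34.5% of all genes, and 3 on array 3, against 23.2%. Cd74 measured 1.09, 1.59, 0.78 and −0.79 and H2-Aa −0.62, −0.01, −1.07 and −3.35.

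Eosinophil genes were high on arrays 2 and 3. The granule proteins Prg2 (3.63, 4.35, 4.82 and 2.74) and Epx (0.46, 1.63, 1.80 and −0.98) and the ribonucleases Ear1 (−2.50, −0.13, 0.66 and −1.63), Ear2 (−0.03, 1.69, 2.78 and 0.65) and Ear10 (−2.31, −0.27, 0.32 and −1.94) had arrays 2 and 3 above arrays 1 and 4. The Ear genes are near-identical copies, so their probes may read each other. Of 19 basophil, mast cell and eosinophil genes above background on 4 arrays, 10 had this order, against 18.1% of all genes. The count was 7 with normexp (10.8% of all genes) and with quantile normalization (18.3%), and scaled to the array median it was 10 but 35.8% of all genes had the order. Prss34, Mcpt8 and Fcer1a of the same list did not share it.

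Genes of NK and T cells were low on array 3. Granzyme A, Gzma, measured 0.01, −0.47, −4.64 and −1.30, and the NK receptor Klrd1 −1.41, −2.02, −3.93 and −3.01. Cd2 (−2.17, −2.82, −5.60 and −2.47) and Klrb1c (NK1.1; −2.59, −2.97, −5.33 and −3.59) had the same lowest array. Of 14 T and NK cell genes above background on 4 arrays, 10 were lowest on array 3, against 23.2% of all genes, and 10 to 12 under other scalings. Cd3e (−1.10, −1.26, −1.14 and −0.76) and Cd4 (0.76, 0.88, 0.42 and 0.30) were not. The other Cd4 probe averaged −5.69 and was above background on 2 arrays. The summed signal of the list was 7.75, 6.98, 4.49 and 6.06. Other lists were low on array 3 too. It was the lowest array for 24 of 28 interferon response genes, 11 of 16 transcription factors of other lineages and 7 of 12 B lineage genes. It was the lowest for 0 of 40 ribosomal protein genes and 2 of 34 cell cycle genes.

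Some osteoblast and matrix genes were higher on slide 1. Of 9 stroma and endothelium genes above background on 4 arrays, 5 had both slide 1 arrays above both slide 2 arrays, against 25.6% of all genes. The osteocalcin genes Bglap3 (−1.38, −1.66, −4.30 and −4.22; chr3:88172540-88172599, mm9) and Bglap2 (−1.45, −1.76, −6.08 and −6.05) were high on both slide 1 arrays, and Bglap2 was above background on these alone. The collagen gene Col1a1, not above background on array 4, measured −1.47, −1.43, −4.29 and −7.77, and Sparc, a collagen-binding protein of bone, −0.68, −0.53, −2.54 and −3.43. Col1a2 was flatter at −1.05, −0.81, −1.76 and −1.31. A second Bglap3 probe gave −2.37, −2.73, −6.60 and −7.32, and the remaining probe was above background on 0 arrays. Runx1-deleted arrays gave −4.12, −4.07, −4.42 and −4.28 for Bglap3, again with both slide 1 arrays higher but by less.

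The slide difference within wild-type GMP was tested with limma on 17897 genes in 1 fit of group and slide means over the 12 arrays. At an adjusted p of 0.05, 1 unnamed transcript was higher on slide 2 (0.00559% of those tested) and 3 genes were lower (0.0168%), 0.0224% in all, while 3386 had an unadjusted p under 0.05. From slide 1 to slide 2, Bglap3 fell by 2.74 ± 0.12 (SE, limma adjusted p = 0.00024) and the placental hormone gene Prl3b1 by 1.80 ± 0.12 (0.0025). Bglap2 passed as well (limma adjusted p = 0.0061), with no fold given because slide 2 holds only a bound. Prl3b1 measured −2.08, −1.94, −3.76 and −3.85. In Runx1-deleted GMP, 679 genes were higher and 663 lower on slide 2 (7.50%). The difference between the slide differences of both genotypes passed only for Bglap3, at 2.48 ± 0.17 (SE, limma adjusted p = 0.0082), with 1350 genes at an unadjusted p under 0.05. That call was lost with only the 8 wild-type and Runx1-deleted arrays, with normexp and without a filter on dim probes. The wild-type count was 2, 1, 6 and 2 without wild-type array 1, 2, 3 or 4, 8 without Runx1-deleted array 1 or 2 and 120 without Runx1-deleted array 3 or 4. The count of differences between genotypes was 0 without wild-type array 1, 3 or 4 or Runx1-deleted array 2 or 4, and 5 and 3 without Runx1-deleted array 1 or 3.

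Set against Runx1-deleted GMP, Cebpa and part of the granule genes were higher in wild-type GMP. Runx1 itself, the targeted gene, measured 1.18, 1.32, 2.23 and 2.13 in wild-type and 3.12, 2.87, 3.41 and 4.2 in Runx1-deleted GMP, a difference of 1.69 ± 0.17 (SE, limma adjusted p = 0.00025). The signal was higher in the group labelled as deleted on every array, and the other probe averaged 1.09 and 2.70. Neither the labels nor the files say whether these probes lie in the deleted segment, so the genotype labels cannot be checked with them. Over all genes 2049 were higher (11.4%) and 2476 lower (13.8%) in Runx1-deleted GMP, with a median difference of −0.05. With the array median in place of the 75th percentile the split was 1855 higher and 1388 lower, and with the deposited value table, also scaled to the median, 1863 and 1328. Without wild-type array 1 or 2 the fit called 2940 or 2851 genes in all, and without Runx1-deleted array 1 or 4 it called 2880 or 2858, against 4525. In all, 25.3% were called either way.

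Mpo measured 7.49, 7.54, 7.80 and 7.26 in Runx1-deleted GMP, each below the wild-type array of the same number, which is known to share only the slide. The ranges overlap, with a difference of −0.44 ± 0.14 (SE, limma adjusted p = 0.045). The call was lost in 14 of 19 other settings (adjusted p of 0.037 to 0.24). Ctsg differed by −0.74 ± 0.23 (limma adjusted p = 0.045), a call lost in 12 of 19 (0.036 to 0.13). Cebpa, at 0.93, 0.99, 0.38 and 0.19, fell by 0.92 ± 0.16 (limma adjusted p = 0.0037) with no overlap between the genotypes and in all 19 settings. Elane (−1.14 ± 0.37, limma adjusted p = 0.051) and Prtn3 (−1.05 ± 0.34, adjusted p = 0.053) did not pass. With the replicate number as a block, which these samples share with the slide, both passed at 0.014 and 0.032 (limma adjusted p). The block also held the transplanted samples of the same number. Within slide 1, however, the same-number arrays of the genotypes did not deviate together (correlation −0.045). Of 23 primary granule genes tested, 1 was higher and 8 lower, beside 11.4% and 13.8% of all genes, with a median of −0.67 against −0.05. Plac8 fell by 0.67 ± 0.14 (0.0086), Ms4a3 by 1.56 ± 0.34 (0.011) and Nkg7 by 1.38 ± 0.19 (0.0013), all with the limma fit.

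Among the other genes of the baseline, Irf8 fell by 1.57 ± 0.28 (limma adjusted p = 0.0044), Flt3 by 1.08 ± 0.20 (0.0051) and Cx3cr1, a chemokine receptor of monocytes, by 3.01 ± 0.37 (0.00069). Ly6c1 fell by 2.40 ± 0.41 (0.0037). Kit rose by 0.53 ± 0.16 (0.038; lost in 9 of 19 settings), Csf2rb by 0.89 ± 0.18 (0.007) and Itga2b by 2.21 ± 0.24 (0.00041). Cd34 fell by 0.39 ± 0.12 (0.042), a call lost in 13 of 19 settings, the block among them (0.063). The counts by list stand beside 11.4% higher and 13.8% lower among all genes. Of the lists, 0 of 40 ribosomal protein genes passed (median −0.09), 0 rose and 20 of 34 cell cycle genes fell (median −0.53), 12 of 25 ribosome biogenesis genes fell and 0 rose (−0.37), and 1 rose and 14 fell of 27 endoplasmic reticulum genes (−0.45). Of 24 megakaryocyte genes 12 rose and 0 fell (1.33), and of 28 interferon response genes 21 rose and 1 fell (1.08). Of the megakaryocyte list, 24 genes were above background on 4 Runx1-deleted arrays but 21 on 4 wild-type arrays. Part of the 24 were therefore tested without being on all wild-type arrays, a selection that favours a rise among them. Late neutrophil genes, which spread widely within both genotypes, had 1 higher and 2 lower of 25 (−0.01), and immediate early genes 0 of 24 (0.77).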

How the data were processed

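RNA of GMP was labelled with Cy3 and hybridised to 12 one-colour Agilent arrays (4 wild-type, 4 Runx1-deleted, 2 ERt2, 2 RUNX1-ERt2). The deposited spot intensities were read with Feature Extraction 10.7.3.1 per the file headers (9.1 per the submitters' processing notes), background-subtracted and detrended within each array, with mm9 positions. The series' value table holds the processed signal divided by about the array median, as deposited by the authors (column medians of 0.91 to 0.94; no centring between arrays was found, and the values are linear). It served as an alternative, with each column assigned to the array it matches.

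Control and outlier spots (129 to 207 outlier spots per array) were left out, spots of a probe averaged and log2 processed signals centred on each array's 75th percentile. A gene took its probe of highest wild-type mean. Among 7242 genes with several probes, the 2 brightest differed by a median of 1.62 log2 units, and in 1050 (14.5%) one probe was above background on 4 wild-type arrays and another on none. Of 39429 probes, 27234 were named by accession, 3576 by symbol and 565 by synonym through a RefSeq table, and 8054 were left unnamed here. Promoters came from RefSeq on GRCm38.p6. With no counts in array data, the number of arrays limits the precision.

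The 17897 genes above background on all arrays of at least 1 group, the transplanted groups included, were tested with limma 3.58.1 (R 4.3.3; lmFit and eBayes, Benjamini-Hochberg, threshold 0.05). The main fits had 6 or 7 residual degrees of freedom, and the fit with the replicate block had fewer. Tables were handled in Python 3.11.15. The scripts were tested on simulated data. The genes named are the 25 brightest, the 5 markers, up to 4 per list (the 2 highest in level and the 2 highest in SD), all GMP surface markers, the 20 most variable, the 10 of largest range among those above background on 1 to 3 arrays, and the genes past the threshold between slides, as far as the text needs them. The other genes were chosen after their values were seen. The members and the gene lists were chosen with earlier results of these data known. List members with no matching probe were Ly6c2, Hspa1b, H2-L and 7 immunoglobulin genes.

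Samples of wild-type and Runx1-deleted GMP with the same number deviated together from their group means (correlations across genes of 0.46, 0.44, 0.24 and 0.75), so the replicate number was used as a block in an alternative fit. The difference between the 2 arrays of a slide correlated between genotypes at −0.045 on slide 1 and 0.53 on slide 2. On slide 1 the same-number samples thus shared nothing measurable beyond the slide. They also share the slide, and wild-type array 2 correlated best with Runx1-deleted array 1 (0.52). Other alternatives were normexp, quantile and array-median scaling, other filters and probe choices, the 8 native arrays alone, and leaving out each array. The fit without long A and G runs was added after seeing the data. Some genes are not reported here.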

Additional observations from a re-analysis of the deposited data

Results flagged for a closer look

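Among 155 genes named, 5 had one wild-type array apart from the other 3, by a gap to the nearest array that exceeded Dixon's 95% critical value as a share of the whole range; chance alone flags about 1 in 20 such sets of 4. Irf8, at 3.88 on array 4 against 4.68 to 4.73, had a gap of 0.941 of its range. The erythroid nuclear protein gene Hemgn, at 5.15 on array 4 against 4.07 to 4.19, had 0.885, and Meis1, at 3.34 on array 4 against 2.83 to 2.90, had 0.854. Cebpb was low on array 4, with 0.833 of its range. For Nr4a1 it was array 1 that stood low, with 0.886. The 5 genes are fewer than that chance rate would give among 155, and some of the 155 were named for their spread over these arrays, so nothing is read from which array stood apart.

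The fall of Bglap3 from slide 1 to slide 2 was 2.74 log2 units in the wild-type arrays and 0.26 in the Runx1-deleted arrays, and the difference of 2.48 passed the limma test of the interaction between slide and genotype.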

How the results depend on the processing

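None of the gene differences followed through the settings changed sign, but the balance of higher and lower calls did. Between genotypes it went from 2049 higher and 2476 lower to 2259 and 2121 with quantile scaling, 1855 and 1388 with the array median and 1863 and 1328 with the deposited value table. Between slides it went from 1 and 3 to 22 and 15 with no filter, 4 and 2 without wild-type array 3, and 93 and 27 without Runx1-deleted array 3 or 4. The number of genes above background on all wild-type arrays, 16505, ranged from 16497 to 19903. The median SD between wild-type arrays, 0.21, was 0.28 with normexp and 0.145 to 0.22 when one array was left out, lowest without array 4. The 4 calls between slides in wild-type GMP became 2 with normexp, 15 with the array median and with the deposited value table, 37 with no filter, 7 with genes above background on all 12 arrays, and 1 to 120 when one array was left out. The single call for a difference in slide effect between genotypes became 0 with normexp, with no filter and with the 8 native arrays alone, 5 with quantile scaling, 10 with the array median and the value table, 2 with genes above background on all 12 arrays, and 0 to 5 when one array was left out. The 4525 genes called between genotypes became 1978 with normexp and 2851 to 4827 when one array was left out. With the replicate block in place of the slide term 4727 were called (2202 higher, 2525 lower). Among the genes named in that comparison the block changed the calls of Elane, Prtn3 and Cd34. The cause of these shifts was not tested. Over 24 genes followed through the settings, 398 calls of the genotype difference stayed on their side of the threshold, 49 were lost and 7 gained. Of 48 percentile ranks under other settings, 35 kept close to the value given and 13 moved. Genes with a level near −6 are limited by the background of the array.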
